A study of Homo sapiens with 12 samples.

Results

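KYSE70, an established human esophageal squamous cell carcinoma line, was compared with and without pyrimethamine across all measured genes. The 8 libraries compared are 4 of untreated cells (control) and 4 of cells given 10 µM pyrimethamine for 72 h, out of 12 libraries in the series. The other 4 came from cells given 20 nM mitoxantrone for 72 h, and they enter the fit and serve here only for values set beside those of pyrimethamine. No label names a vehicle or says if replicates of a group were grown apart, so every p-value refers to the spread among these libraries, which may be technical. The series title calls both drugs inhibitors of NRF2, the transcription factor that drives antioxidant and detoxification genes.

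Of 58884 genes in the deposited table, 16950 had a value of at least 10 normalized counts in at least 4 of the 12 libraries and were tested. The gene just inside this filter had 10.2 as the highest value that 4 libraries reached and the gene just outside had 9.91. A gene is called well-measured where its mean over the 8 libraries was 100 normalized counts or more, which held for 12146 genes. The least abundant of these had a mean of 100.1, and the most abundant of the other 4804 tested genes had 99.9. Well-measured genes held 99.7% of all normalized counts in the 8 libraries, which had 47465335 to 94516756 reads assigned to genes in the control group and 59546265 to 72526909 in the pyrimethamine group. Of 16 squamous markers, 15 were tested, and their summed level was 490596 to 512037 normalized counts in control libraries and 552284 to 578749 in pyrimethamine libraries. The keratins KRT5 and KRT6A make up most of that sum, and over the 15 genes the median log2 change was -0.073, with 3 higher and 6 lower. The untested marker was GRHL2, an epithelial transcription factor, at 0 to 5.91 normalized counts in the 8 libraries. Among markers of other cells, 2 of 8 leukocyte genes were tested (PTPRC and ITGAM), with summed levels of 14.5 to 48.6 in the control and 56.1 to 72.3 under pyrimethamine, and 3 of 7 endothelial genes were tested, with sums of 984 to 1112 and 1136 to 1231. Of 9 fibroblast markers, 4 were tested and summed to 23039 to 23976 in the control and 19471 to 20913 under pyrimethamine, nearly all of it from COL1A1, COL3A1 and THY1, while FAP had no read and DCN at most 0.890. CLDN5, a defining endothelial marker, had no read either. VWF, von Willebrand factor, made up nearly all of the endothelial sum and was not called (1055, 1052, 941 and 957 normalized counts in the control, 1151, 1036, 1118 and 1087 under pyrimethamine). The low genes TEK, an endothelial receptor, and PTPRC, the pan-leukocyte phosphatase, were called higher, TEK from 31.8, 18.5, 18.7 and 11.9 to 40.1, 52.2, 67.6 and 31.8 and PTPRC from 11.2, 3.96, 3.11 and 1.32 to 29.4, 17.7, 17.4 and 19.7. PTPRC reached 10 normalized counts in every pyrimethamine library but only in control 1 of its group. Among the 8 libraries it thus passed the filter through pyrimethamine, so its direction was not free of the filter. The part of these markers in any result was not tested.

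Pyrimethamine is an antifolate. It limits the supply of the reduced folates that cells need to make thymidylate and purines, and is used against malaria and toxoplasma parasites. In cancer cells it has been studied as an inhibitor of STAT3 signaling as well as of NRF2. A cell short of thymidylate has trouble copying its DNA, so genes of S phase, of mitosis and of stress responses are natural places to look besides the folate enzymes. The gene lists used below were chosen with earlier results of these data known, so their counts are no test of an expectation.

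The response was broad and mostly small. By limma on log2(normalized count + 1), with Benjamini-Hochberg adjustment over all genes tested, 9042 genes differed from the control at an adjusted p under 0.05, or 53.3% of those tested. These calls were nearly balanced, with 4477 genes (26.4%) higher and 4565 (26.9%) lower. Among well-measured genes 7744 were called, or 63.8%, with 3684 (30.3%) higher and 4060 (33.4%) lower. The split depends on the scaling: when totals of all libraries are made equal, 2927 well-measured genes were higher and 4931 lower. The median log2 change over well-measured genes was -0.012 and its SD was 0.39, against a median standard error of 0.054. Of the well-measured calls, 38.5% were smaller than 1.2-fold and 83.1% smaller than 1.5-fold. At least 1.5-fold changes were called in 680 well-measured genes (5.6%) that were higher and in 632 (5.2%) that were lower. At least 2-fold changes were called in 200 (1.65%) that were higher and 104 (0.856%) that were lower. Under the deposited size factors the largest changes thus leaned upward. With library totals made equal, the balance at 1.5-fold turned, with 556 genes higher and 804 lower. At 2-fold, 171 were then higher and 130 lower. By a stricter count without a model, all 4 pyrimethamine libraries were at least 2 times the highest control library for 83 well-measured genes, and all 4 control libraries were at least 2 times the highest pyrimethamine library for 39. Control and pyrimethamine libraries did not overlap for 7442 well-measured genes, or 61.3%, close to the 63.8% called. The 42 tested genes under 10 normalized counts in all 8 libraries passed the filter through mitoxantrone libraries only.

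**Figure D1:**
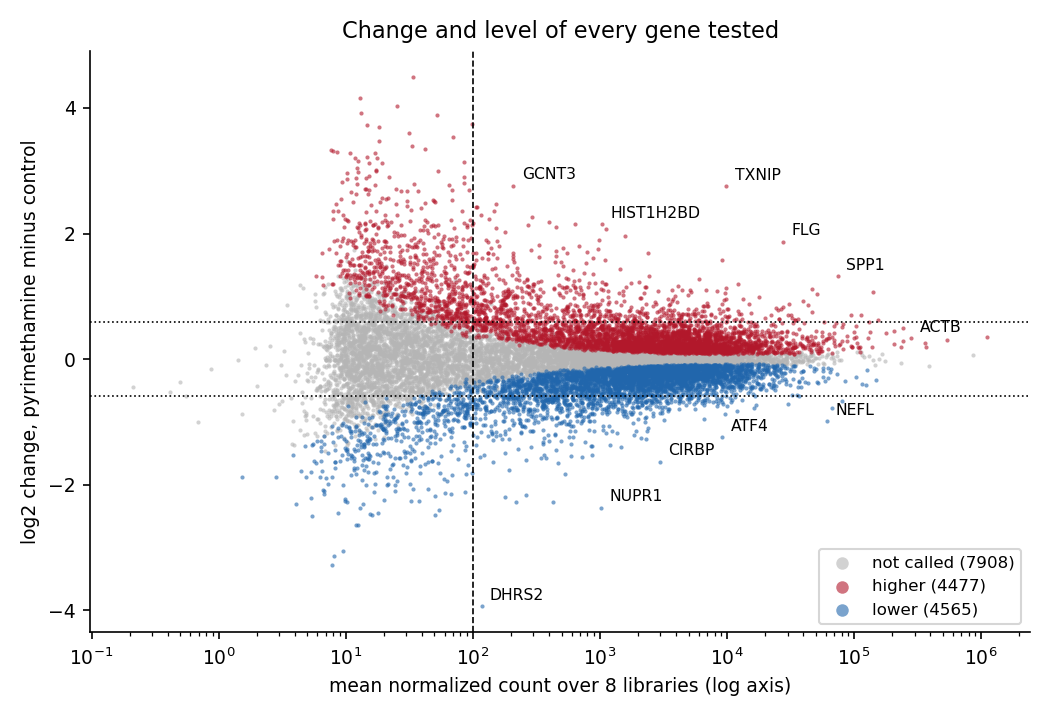
Each point is 1 of the 16950 genes tested, with its mean normalized count over the 8 libraries (log axis) against its log2 change, pyrimethamine minus control. Called genes are colored (higher in red, lower in blue), gray genes were not called, and the dashed line marks a mean of 100, to the right of which most called changes lie within 1.5-fold of no change (dotted lines).

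The spread and the direction of change differed with abundance. The SD of the log2 change, which includes counting error, was 0.85 in genes with a mean under 100 normalized counts and 0.52 from 100 to 1000. It was 0.31 from 1000 to 10000 and 0.28 over 10000. Of 1295 genes with a mean over 10000 normalized counts, 41.2% were higher and 28.1% lower, with a median log2 change of 0.045. From 1000 to 10000 normalized counts, 31.1% of 6818 genes were higher and 36.1% lower, with a median of -0.019. Of the 200 genes at least 2-fold higher, 43 had a mean over 1000 and 6 a mean over 10000, and of the 104 at least 2-fold lower, 18 and 0 did. Summed over called nuclear protein-coding well-measured genes, the gain in normalized counts equaled 7.91% of the mean control total and the loss 5.52%. The 8 largest gains made up 8.32% of that gain and the 8 largest losses 7.33% of that loss, so most of the gain and of the loss came from other genes. These sums and the shares by level rest on the deposited size factors. They were not recomputed with library totals made equal, where 2927 well-measured genes were higher and 4931 lower.

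The 12 highest rises among well-measured protein-coding genes were led by GCNT3, an enzyme that branches O-linked glycans of mucins. Its level was 51.4, 52.2, 50.9 and 56.7 normalized counts in the 4 control libraries and 399.6, 373, 312 and 376 in the 4 pyrimethamine libraries, a log2 change of 2.76 (SE 0.34, limma adjusted p = 5.76e-07). TXNIP, an arrestin-like protein that binds thioredoxin and lowers glucose uptake, went from 2497, 2308, 2782 and 2623 to 17268, 17277, 16636 and 17654 normalized counts, a log2 change of 2.76 (SE 0.049, limma adjusted p = 4.52e-20). TXNIP thus combined one of the largest changes with a high level, and its lowest pyrimethamine library was far above its highest control library. ARRDC4, its close relative and chosen after its values were seen, was at 634, 619.7, 653 and 651 in the control and at 2621, 2552, 2370.4 and 2465 under pyrimethamine, a log2 change of 1.97 (limma adjusted p = 3.96e-16). Next came MAP3K7CL with a log2 change of 2.47, ALPP, a placental alkaline phosphatase whose reads can be shared with near-identical family members, with 2.43, VSTM1, an immunoglobulin-like receptor, with 2.42, and SERPINA9, a serine protease inhibitor, with 2.36. BMPER, a secreted protein that binds bone morphogenetic proteins, had 2.23. The other 5 were histone genes, HIST1H3H, HIST1H3E, HIST1H2BC, HIST1H2BJ and HIST1H2BD, with log2 changes of 2.29, 2.26, 2.18, 2.15 and 2.15.

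DHRS2, a short-chain dehydrogenase, fell most. It was at 212, 222, 229 and 219 normalized counts in the control and at 17.8, 13.8, 8.19 and 16.4 under pyrimethamine, a log2 change of -3.93 (SE 0.19, limma adjusted p = 1.15e-12). NUPR1, a stress-induced chromatin protein, went from 1815, 1719, 1455 and 1859 to 307, 358, 326 and 331, a log2 change of -2.37. CIRBP, the cold-inducible RNA-binding protein, was the most abundant of the 12 largest falls, at 4579.8, 4227, 4528 and 4721 in the control and 1405, 1419, 1605 and 1402 under pyrimethamine, a log2 change of -1.63 (SE 0.048, limma adjusted p = 4.50e-16). In each of these 3 genes every control library was at least 2 times the highest pyrimethamine library. Among the others, CDH4, encoding R-cadherin, had a log2 change of -2.16, KCNJ4, a potassium channel, -2.19, RAB26, a small GTPase of secretory granules, -2.27, GNAZ, a G protein alpha subunit, -1.65, and CCDC106 -2.27. ULBP1, a ligand that natural killer cells recognize, had -1.76, GLI1, the transcription factor at the end of the Hedgehog pathway, -1.63, ENHO, which encodes the peptide adropin, -1.60, and the zinc finger gene ZNF580 -1.58.

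**Figure D2:**
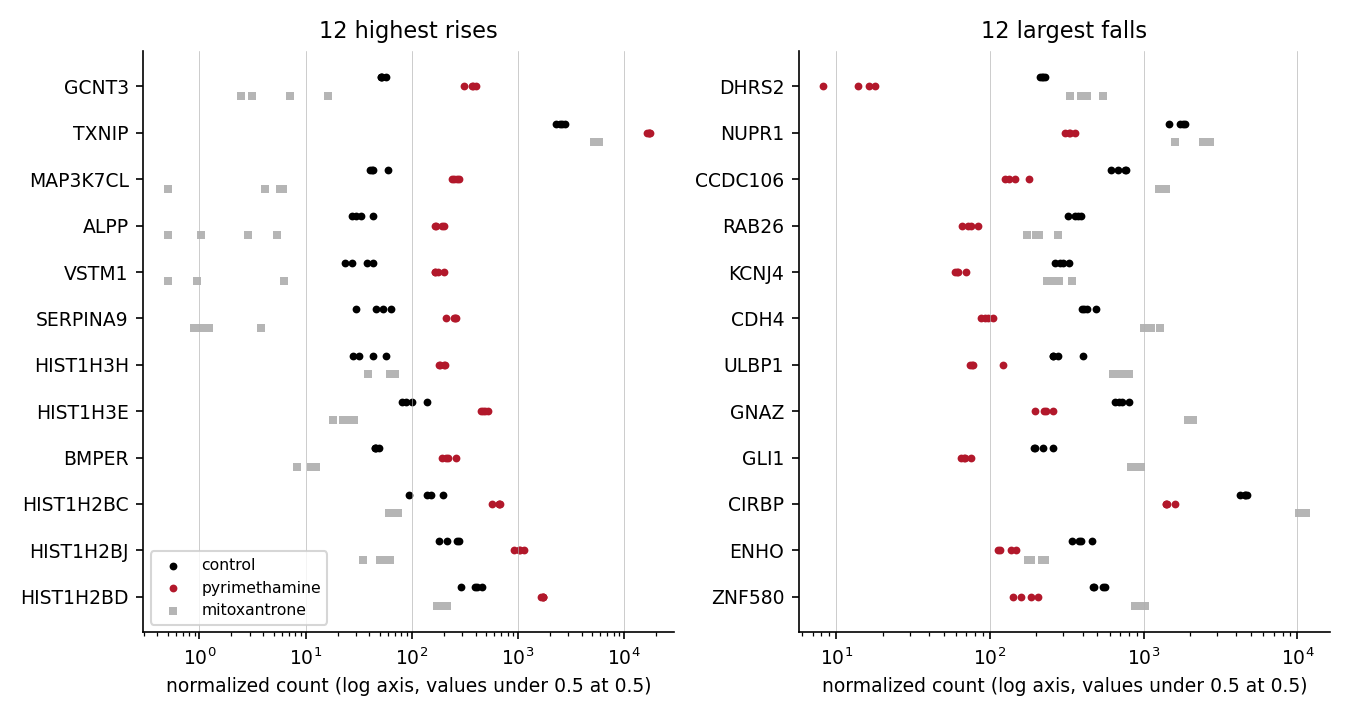
Normalized counts (log axis) of the 12 well-measured protein-coding genes with the highest rises and the 12 with the largest falls, 1 row per gene and 1 point per library. Control and pyrimethamine points do not overlap in any row, which the choice of genes required, and mitoxantrone points are drawn for reference.

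For the same 24 genes the pyrimethamine libraries also differed from the mitoxantrone libraries, in a comparison that uses the same pyrimethamine libraries and in which 12956 of 16950 genes, or 76.4%, were called. GCNT3 was at 3.10, 16.2, 2.47 and 7.17 normalized counts in the 4 mitoxantrone libraries and DHRS2 at 543, 333, 429 and 392. TXNIP was at 5883, 5221, 5425 and 5368, between its levels in the control and pyrimethamine groups. CIRBP, at 11002, 11310.5, 10544 and 10259 under mitoxantrone, was higher there than in either other group.

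Gains and losses in normalized counts were ranked among called nuclear protein-coding genes whose groups do not overlap, which leaves out genes of the mitochondrial genome. Of these, ACTB, the cytoplasmic actin gene, gained most, from 244438, 260032, 248403 and 246441 to 312690.0, 313769, 323763 and 314116 normalized counts. Its log2 change was 0.34. SPP1, which encodes the secreted phosphoprotein osteopontin, followed, at 40738, 43632, 43486 and 42919.7 in the control and 104876, 107182, 104763 and 108997 under pyrimethamine, a log2 change of 1.32 (SE 0.046, limma adjusted p = 8.24e-15). IGFBP3, a carrier of insulin-like growth factors, rose by 0.71, SLC7A5, a transporter of large neutral amino acids, by 0.60, THBS1, a matrix protein, by 0.70, and MYH9, a nonmuscle myosin, by 0.52. KRT5, the basal keratin, rose by 0.30 and ANXA2, a membrane-binding annexin, by 0.44. The calls of ACTB and KRT5 were lost under quantile normalization, where KRT5 had a log2 change of 0.038 (limma adjusted p = 0.514) and ACTB the same value in every library, which that method gives by construction to a gene that keeps its rank. The largest loss was in NEFL, a neurofilament gene, from 78267, 83034, 82485 and 83494 to 42268, 41016, 41384 and 39994 normalized counts, a log2 change of -0.99 (SE 0.041, limma adjusted p = 7.55e-14). RPL3, a ribosomal protein gene, and HNRNPA1, an RNA-binding splicing factor, had log2 changes of -0.67 and -0.78, and reads of both can fall on processed pseudogenes. FTH1, ferritin heavy chain, had -0.41, the chaperone genes HSPA8 and HSP90AB1 -0.33 and -0.28, and TUBB, a beta tubulin, -0.34. The remaining gene of these 8 was TYMS, thymidylate synthase, which makes the thymidine nucleotide of DNA from a reduced folate. It was at 134889, 129641, 127376 and 130395 in the control and 101887, 98307, 98494 and 99299.5 under pyrimethamine, a log2 change of -0.39 (SE 0.039, limma adjusted p = 2.98e-08).

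Genes of folate and nucleotide metabolism went both ways, in shares near those of all well-measured genes (30.3% higher and 33.4% lower) for the folate and purine lists. Of 29 well-measured folate and one-carbon genes, 9 were higher, 9 lower and 11 not called, and the median log2 change was -0.028 against -0.012 over all well-measured genes. GGH, which trims polyglutamate chains from folates, rose by 0.62, and MAT2A, which makes S-adenosylmethionine, by 0.51. The mitochondrial enzymes MTHFD1L and SHMT2 fell, with log2 changes of -0.68 and -0.54, and ALDH1L1, the enzyme that oxidizes 10-formyltetrahydrofolate, with -0.87. Of 21 genes of pyrimidine and deoxynucleotide synthesis, 7 were higher and 10 lower, with RRM1, the large subunit of ribonucleotide reductase, at -0.45 and the salvage kinase TK1 at 0.32. Purine synthesis genes gave 5 higher and 6 lower of 15, among them IMPDH2, the rate-limiting enzyme of guanine nucleotide synthesis, which fell with -0.68.

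Genes of chromosome segregation were higher as a group and genes of DNA replication mostly lower. Of 40 well-measured genes of the spindle and kinetochore, 34 were higher and 1 (SPC24) lower, against 30.3% higher and 33.4% lower over all well-measured genes, and their median log2 change was 0.51. Measured against the control mean of each gene, this median was 0.48, 0.54, 0.49 and 0.51 in the 4 pyrimethamine libraries. KIF20A, a kinesin of cytokinesis, was at 7225, 7576, 7509 and 7691 normalized counts in the control and 17325, 17363, 16628 and 17429.5 under pyrimethamine, a log2 change of 1.196. HMMR, a spindle-associated protein, went from 5678, 6039, 6453 and 6471 to 12622, 13855, 13341 and 13916, a log2 change of 1.13 (SE 0.049, limma adjusted p = 1.58e-13). CENPE, a kinetochore motor, had 1385, 1370.2, 1555 and 1339 in the control and 2153, 3510.1, 2752 and 2869 under pyrimethamine, with a wide spread in the treated group. Among 17 cyclins and kinases of G2 and mitosis, 10 were higher and 0 lower, with a median of 0.39, including CCNF, UBE2C and NEK2 with log2 changes of 0.80, 0.74 and 0.71. Of 38 genes of replication licensing and the replication fork, 20 were lower and 5 higher, with a median of -0.18. LIG1, a DNA ligase of lagging-strand synthesis, went from 4367, 4644, 4181 and 4299 to 2501, 2661, 2511 and 2418 normalized counts, a log2 change of -0.79, and GINS3, of the replicative helicase complex, and POLD3, a polymerase delta subunit, had -0.79 and -0.75. CCNE2, which activates CDK2 before S phase, fell with -0.95 and CDK4, a G1 kinase, with -0.58, whereas the CDK inhibitor gene CDKN1A rose by 0.42. Of 31 genes of DNA damage signaling and repair, 17 were lower and 7 higher, with the Fanconi anemia gene FANCI at -0.74. Of 26 p53 target genes, 12 were higher and 6 lower, with ZMAT3 at 0.86 and MDM2 at 0.52. Bulk RNA cannot tell more cells in a phase from more RNA per cell.

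The letters of the promoters differ between these lists of genes, and 7 promoters, picked for both their change and their match, are shown to make the letters visible. Each is the 150 bases before the transcription start on the gene's own strand, from RefSeq on GRCh38.p14. The first 4 belong to segregation genes that were higher, with the cell cycle homology region (CHR), bound by the DREAM and MMB complexes of late cell cycle genes, in capitals as TTTGAA or its reverse complement. The other 3 belong to replication genes that were lower, with the E2F site of S-phase genes in capitals as TTCCCGC or its reverse complement. They were chosen after the values were seen, as the largest changes of each list with such a match in these 150 bases.
HMMR: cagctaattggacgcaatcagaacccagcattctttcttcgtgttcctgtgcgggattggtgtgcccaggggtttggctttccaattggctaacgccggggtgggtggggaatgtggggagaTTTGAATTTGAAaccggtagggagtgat
PLK1: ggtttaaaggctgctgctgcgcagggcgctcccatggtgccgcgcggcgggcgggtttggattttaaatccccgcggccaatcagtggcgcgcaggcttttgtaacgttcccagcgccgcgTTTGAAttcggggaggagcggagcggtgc
CDC20: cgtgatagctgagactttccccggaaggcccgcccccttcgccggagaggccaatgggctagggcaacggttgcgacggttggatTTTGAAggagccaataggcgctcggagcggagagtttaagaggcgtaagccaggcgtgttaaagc
ASPM: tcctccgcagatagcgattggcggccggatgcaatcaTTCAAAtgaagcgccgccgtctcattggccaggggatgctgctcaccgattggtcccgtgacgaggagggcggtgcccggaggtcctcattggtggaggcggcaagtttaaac
LIG1: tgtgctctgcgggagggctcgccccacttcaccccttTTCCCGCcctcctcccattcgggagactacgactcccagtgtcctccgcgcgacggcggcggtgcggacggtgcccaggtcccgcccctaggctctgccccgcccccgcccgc
CDT1: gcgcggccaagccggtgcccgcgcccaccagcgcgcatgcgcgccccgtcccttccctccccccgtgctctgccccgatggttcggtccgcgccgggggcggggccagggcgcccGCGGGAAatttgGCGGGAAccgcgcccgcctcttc
RFC4: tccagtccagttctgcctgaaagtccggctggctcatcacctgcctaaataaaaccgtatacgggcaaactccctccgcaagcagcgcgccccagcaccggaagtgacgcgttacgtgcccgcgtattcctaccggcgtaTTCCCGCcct

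These windows lie at chr5:163460482-163460631 (+ strand) (HMMR), chr16:23678739-23678888 (+ strand) (PLK1), chr1:43358831-43358980 (+ strand) (CDC20), chr1:197146670-197146819 (- strand) (ASPM), chr19:48170345-48170494 (- strand) (LIG1), chr16:88803639-88803788 (+ strand) (CDT1) and chr3:186806483-186806632 (- strand) (RFC4), just upstream of the first exon. The log2 changes of the 7 genes were 1.13, 0.87, 0.81, 0.71, -0.79, -0.62 and -0.45 in that order. HMMR has 2 CHR matches side by side, whose first bases are 28 and 22 bases before the start. Matches were counted on both strands in the whole window of the table, 250 bases before to 50 bases after the start, and 9235 of 11271 well-measured protein-coding genes (81.9%) had such a window. CHR letters were in 25 of 34 segregation promoters (73.5%), in 0 of 32 replication promoters, in 9.41% of all well-measured promoters and in 15.4% of the 27305 promoters of the table. E2F letters were in 14 of 32 replication promoters (43.8%), in 3 of 34 segregation promoters (8.82%) and in 10.8% of all well-measured ones. Within a list the letters did not follow the change: all 5 segregation genes that were not called held a CHR match, as did 20 of the 28 that were higher, and E2F letters were in 8 of 18 lower replication genes and in 6 of 14 that were not lower. KIF20A and CENPE were among the 3 largest rises of the list and had no CHR match in this window.

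The same letters were then used without any gene list, in a split by CHR and CCAAT letters that was picked once values were known. Of 391 well-measured genes whose promoter held both a CHR match and the CCAAT box, 41.9% were higher and 28.6% lower, and 39.1% and 30.6% of the 366 that remain when both mitosis lists are left out. All 869 genes with a CHR match were higher in 34.8% of cases and lower in 31.8%, and the 996 genes with an E2F match in 28.3% and 37.8%, with a median log2 change of -0.036 against -0.024 over all genes with a promoter. Genes with a CHR match but no CCAAT box were higher in 28.9% of 478 cases and lower in 34.3%, close to the 29.5% and 34.8% of all genes with a promoter. Those with a CCAAT box but no CHR match were higher in 30.9% of 3078 cases and lower in 32.8%. No CHR match overlapped a CCAAT match among the 946 found. Among genes at least 1.5-fold higher, 17.0% of 406 promoters held a CHR match, and 9.57% of 439 promoters of genes at least 1.5-fold lower did. At a 2-fold minimum the shares were 15.2% of 112 and 14.3% of 63, so the contrast did not extend to the largest changes. AP-1 letters (TGANTCA) were in 12 of 112 promoters at least 2-fold higher (10.7%) and in 4 of 63 at least 2-fold lower (6.35%). They were in 4.31% of all well-measured promoters and in 7.76% of all promoters of the RefSeq set. CCAAT was also more frequent among promoters at least 2-fold higher than among all well-measured ones (53.6% against 37.6%), while E2F letters were rarer (4.46% against 10.8%). Promoter GC content had a median of 58.7% in genes at least 2-fold higher, 63.3% in those at least 2-fold lower and 65.7% overall. A match describes letters in a window and is neither a binding site nor a cause.

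**Figure D3:**
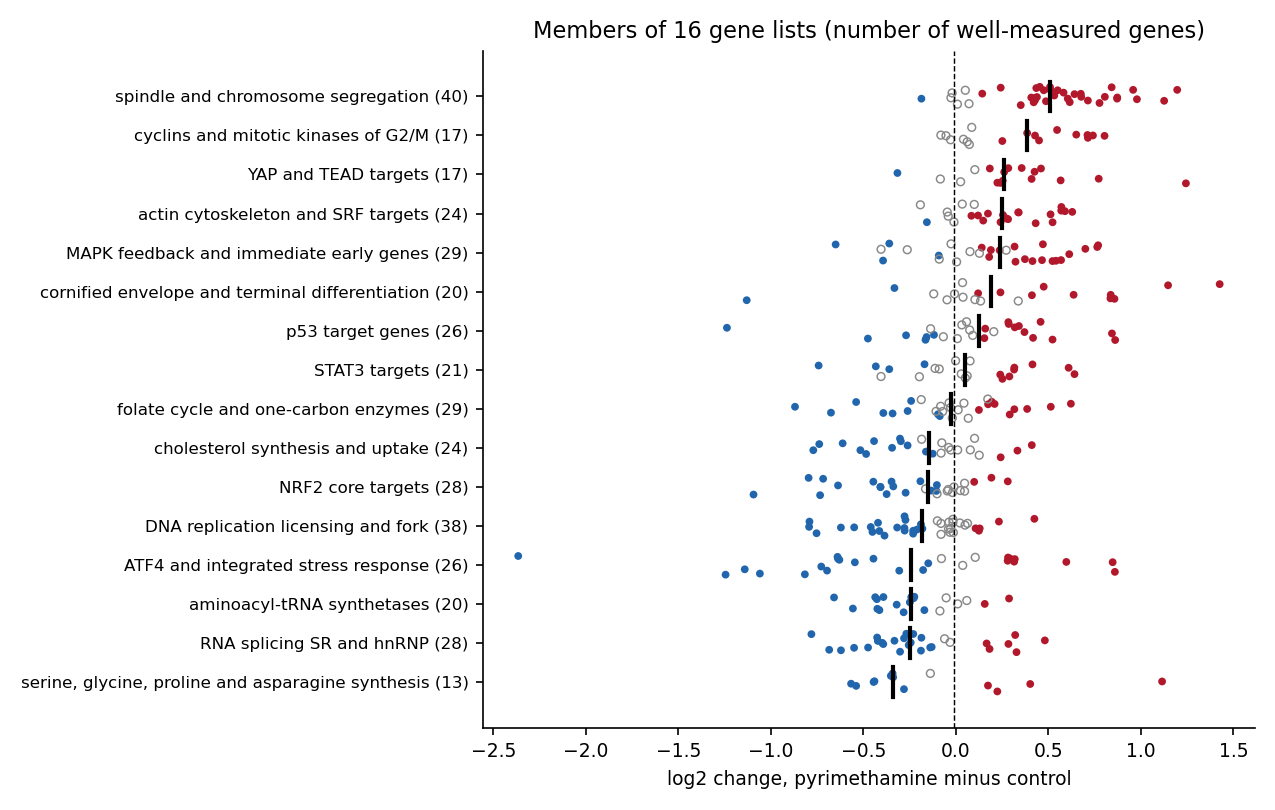
Log2 change (pyrimethamine minus control) of every well-measured member of 16 gene lists, 1 point per gene, with called genes filled and the list's median as a vertical bar. The dashed line at -0.012 is the median of all 12146 well-measured genes, and the segregation list lies furthest to its right.

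Grouping all well-measured protein-coding genes by the stem of their symbol gave 203 families of at least 8 members, with 3950 genes, and needs no choice of pathway. Only 5 families had a median log2 change beyond 0.3 in either direction, and 79 of the 203 had a median above 0. It was 44 of 203 with library totals made equal and 87 under quantile normalization, so the sign of a family median near 0 depends on the scaling. Histones stood furthest out. All 14 members with a HIST symbol were higher, 12 of them in the HIST1H clusters with a median of 1.88, and the smallest change among those 12 was 1.10. HIST1H2BD, the most abundant of the 12 highest rises of this kind, was at 289, 396, 409 and 459 normalized counts in the control and 1726, 1647, 1710.3 and 1714 under pyrimethamine. Replication-dependent histone genes together took 0.0109% ± 9.4e-04 of reads in the control and 0.0267% ± 7.7e-04 under pyrimethamine (SD, n = 4 each, exact two-sided permutation p = 0.0286, which is the smallest value 4 against 4 libraries can give, adjusted p = 0.04 over 7 library measures). Transcripts of these genes mostly lack a poly(A) tail and several copies are nearly identical, so the share of each copy is uncertain.

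Below the histones the family medians were modest, and the counts stand beside 30.3% higher and 33.4% lower over all well-measured genes. DNAJB cochaperones had a median of 0.27 with 5 of 9 higher and 3 lower, DUSP phosphatases 0.24 with 8 of 16 higher and 4 lower, and COX genes, mostly subunits and assembly factors of cytochrome c oxidase, 0.22 with 11 of 20 higher and 3 lower. NDUFB subunits of respiratory complex I had 0.20, with 10 of 11 higher and 0 lower, and NDUFA subunits 0.15, with 9 of 11 higher. Complex I did not rise as a whole, since NDUFS subunits had -0.11, with 2 of 8 higher and 4 lower. NDUFAF genes, its assembly factors, had -0.017, with 3 of 8 higher and 4 lower. NDUFB9 was at 16814, 17936, 19000.2 and 19213 normalized counts in the control and 25723, 24858, 26615 and 28598 under pyrimethamine, a log2 change of 0.54. NBPF genes, a family of near-identical copies, had 0.27 with 4 of 8 higher and 2 lower, and BMP genes, a stem that joins bone morphogenetic proteins with unrelated names such as BMP2K, 0.23 with 4 of 8 higher. Reads from the mitochondrial genome, which encodes other subunits of the same respiratory complexes, were 6.43% ± 0.230 of the control total and 7.65% ± 0.621 under pyrimethamine (SD, n = 4 each, exact permutation p = 0.0286, adjusted p = 0.04). The groups lay close at their nearest libraries, and with any 1 control library left out the adjusted p of the exact permutation test was 0.0667 to 0.08.

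At the other end, ALDH genes, aldehyde dehydrogenases, had the lowest median, -0.34, with 7 of 13 lower and 3 higher. Septins (SEPT) had -0.33 with 5 of 10 lower (-0.18 when only members with a mean of at least 500 are counted), PARP genes, which transfer ADP-ribose, -0.31 with 7 of 10 lower, and TCF transcription factors -0.28 with 5 of 9 lower. KAT acetyltransferases had -0.28 with 6 of 8 lower and 1 higher, DHRS short-chain dehydrogenases -0.28 with 6 of 10 lower, GOLGA golgins -0.28 with 5 of 8 lower, and GALNT enzymes, which start mucin-type O-glycans, -0.28 with 6 of 11 lower and 0 higher. GALNT17 fell furthest of the GALNT genes, from 980.3, 868, 743 and 818 to 358, 358, 324 and 288 normalized counts, a log2 change of -1.36, while GCNT3, which extends the glycans these enzymes begin, had the highest rise of any gene above. TCF19, a regulator with a peak in the cell cycle, was at 2876, 3052, 3152 and 2936 in the control and 1602, 1558, 1525 and 1569 under pyrimethamine. Zinc finger genes with a ZNF symbol formed the largest family, and 138 of 299 were lower and 41 higher, with a median of -0.16 (-0.22 with equal totals, -0.14 after quantile normalization). Thus 46.2% of ZNF genes were lower, against 33.4% of all well-measured genes.

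**Figure D4:**
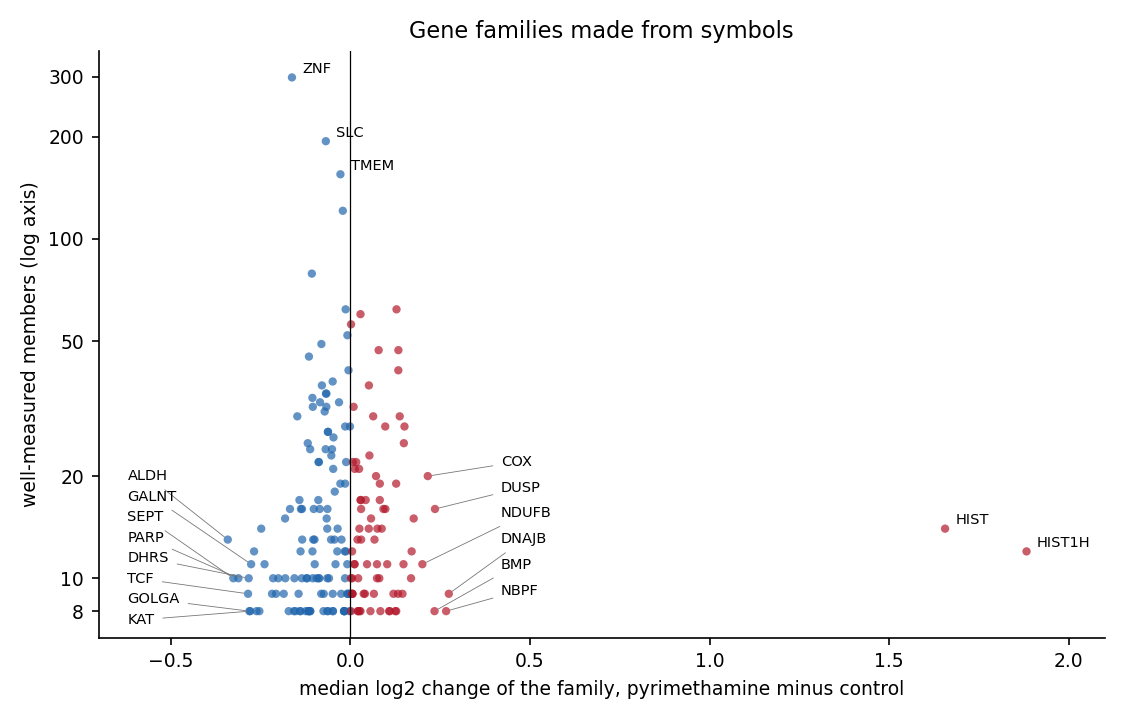
Median log2 change of each of the 203 families made from symbols (horizontal axis) against its number of well-measured members (vertical log axis), 1 point per family. The 8 highest, the 8 lowest and the 3 largest families are labeled, and HIST and HIST1H lie far to the right of all others.

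Genes of the integrated stress response were lower more often than higher. ATF4, the transcription factor that executes this response, was at 13302, 12947, 12399.6 and 13037 normalized counts in the control and 5625, 5562, 5274 and 5349.5 under pyrimethamine, a log2 change of -1.24 (SE 0.035, limma adjusted p = 3.12e-16). Of 26 well-measured members of the list, 15 were lower and 8 higher, with a median log2 change of -0.24, beside 30.3% higher and 33.4% lower over all well-measured genes, so only the lower share stood above that of all genes. DDIT4, an inhibitor of mTORC1 signaling, had -1.14, while ATF3 and GDF15, a transcription factor and a stress hormone, rose by 0.85 and 0.86. Aminoacyl-tRNA synthetases were lower in 14 of 20 cases and higher in 2, with a median of -0.24 and EPRS at -0.66. Serine, glycine, proline and asparagine synthesis gave 8 lower and 4 higher of 13, with a median of -0.34, PHGDH, the first enzyme of serine synthesis, at -0.44 and PYCR1, of proline synthesis, at -0.57. GLUL, glutamine synthetase, was the exception in size and rose from 29132, 29964, 29368 and 29939 to 65358, 63109, 63972 and 63944 normalized counts, a log2 change of 1.11 (SE 0.041, limma adjusted p = 1.93e-14). Chaperones and sensors of the endoplasmic reticulum had 15 of 28 lower and 2 higher, with a median of -0.14.

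Splicing regulators fell in most cases. Of 28 SR and hnRNP genes, 20 were lower and 6 higher, with a median of -0.25, beside 30.3% higher and 33.4% lower over all well-measured genes, and in the SRSF family alone 10 of 12 were lower. HNRNPDL was at 11261, 11054, 11122 and 11299 normalized counts in the control and 6835, 7231, 6857 and 6916 under pyrimethamine, a log2 change of -0.68, and SRSF4 had -0.62. The CLK kinases, which phosphorylate SR proteins, and SRRM2, a large spliceosomal protein, went the other way, with CLK1, CLK4 and SRRM2 at 0.32, 0.33 and 0.48.

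Lipid synthesis genes had more falls than rises. SREBF1, the master regulator of fatty acid synthesis genes, went from 3091, 3095, 2846 and 2980.3 to 1633, 1617, 1418 and 1361 normalized counts, a log2 change of -0.998. The desaturase genes FADS1 and FADS2 had -0.75 and -0.46, and of 16 fatty acid genes 9 were lower and 2 higher. Cholesterol genes gave 12 lower and 3 higher of 24, with INSIG1, a sterol sensor, at -0.77. Medians were -0.13 for fatty acid genes and -0.14 for cholesterol genes, and over all well-measured genes 33.4% were lower and 30.3% higher.

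Of 28 core targets of NRF2, the factor named in the series title, 16 were lower, 3 higher and 9 not called. The median log2 change was -0.15, beside 33.4% lower over all well-measured genes. TRIM16L went from 7348, 7117, 7098 and 7181 to 4302, 4115, 4010.1 and 4132 normalized counts, a log2 change of -0.80, although it is a near copy of TRIM16 and reads of the pair can be split. The aldo-keto reductase AKR1C3 had -0.73 and the heme oxygenase HMOX1 -1.09, and of the 3 members that rose, GPX2, a glutathione peroxidase, had 0.28 and TKT, transketolase, 0.099. The call of TKT was lost in 11 alternative fits, its direction turned under quantile normalization (log2 change -0.0049, limma adjusted p = 0.940), and 6 of these fits were those without control 1, 3 or 4 or without pyrimethamine 1, 2 or 3 (limma adjusted p = 0.0612 to 0.120). Xenobiotic enzymes and transporters, a list that shares AKR1C3 with the NRF2 list, had 14 of 27 lower and 6 higher, with a median of -0.23 and CYP4F11, a fatty acid hydroxylase, at -1.15.

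Actin cytoskeleton genes and YAP targets were mostly higher. Counts in these lists stand beside 30.3% higher and 33.4% lower over all well-measured genes. Of 24 genes of the actin cytoskeleton, 17 were higher and 1 lower, with a median of 0.25 (0.12 under quantile normalization), and of 17 YAP and TEAD targets 13 were higher and 1 lower, with a median of 0.26. CCN2, a matricellular protein and standard YAP target, was at 224, 213, 174 and 206 normalized counts in the control and 464, 514, 490.3 and 463 under pyrimethamine, a log2 change of 1.24 (SE 0.15, limma adjusted p = 5.04e-07). Among 29 MAPK feedback and immediate early genes 17 were higher and 4 lower, with a median of 0.24. Of 11 EGF receptor family ligands and receptors, 7 were higher, 3 lower and 1 not called, with a median of 0.39. The EGF receptor ligands HBEGF and AREG rose by 1.18 and 1.08 and the receptor's inhibitor ERRFI1 by 0.92, whereas EGFR itself fell from 40316, 37824, 38242 and 34130.2 to 22729, 23387, 22797 and 22718 normalized counts, a log2 change of -0.71. FN1, encoding the matrix protein fibronectin, rose from 515, 453, 478 and 356 to 1477, 1445, 1554 and 1529, a log2 change of 1.75 (SE 0.11, limma adjusted p = 5.73e-11). Matrix genes were mixed, with 19 of 37 higher and 11 lower. STAT3, the other reported target of the drug, was higher as a transcript, at 5367, 5458, 5364 and 5315 in the control and 7913, 8327, 8259 and 8316 under pyrimethamine, a log2 change of 0.61, while its 21 listed target genes gave 8 higher, 4 lower and 9 not called. NF-kB targets had 10 of 19 lower and 7 higher, with BIRC3 at 1.38 and CCL2 at -1.05, and type I interferon genes had 10 of 21 lower and 4 higher.

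Epithelial lineage genes and terminal differentiation genes gave different counts. Of 15 squamous lineage markers 3 were higher and 6 lower, near the 30.3% and 33.4% of all well-measured genes, with the stratified keratin KRT6A at 0.56 and the transcription factor genes TP63 and SOX2 at -0.38 and -0.49. Genes of the cornified envelope and terminal differentiation were higher in 10 of 20 cases and lower in 2, with a median of 0.19, and KLK5 and KLK10, proteases of the outer epidermis, rose by 1.43 and 1.15. The largest fall among these 20 was in GRHL3, a transcription factor of barrier formation, from 477, 559.6, 398 and 536 to 255, 233, 193 and 214 normalized counts, a log2 change of -1.13. ZNF750, a low gene that regulates differentiation, was lower too, with -1.54. It had 21.4 normalized counts in pyrimethamine 1 and 7.88 to 8.76 in the others of that group. Among the 8 libraries ZNF750 could thus pass the filter only with control libraries, so its direction was not free of the filter. The tight junction gene CLDN1 rose by 1.32 and CLDN4 fell with -1.01. The epidermal differentiation complex, a run of 45 protein-coding genes on chromosome 1 from 152084144 to 153262122 (GRCh38), was looked at after its values were seen. Only 10 of its genes were tested, of which 8 were higher, 0 lower and 2 (TCHH and TCHHL1) not called, where 26.4% of all tested genes were higher. IVL and LOR, the envelope proteins involucrin and loricrin, were not tested, with 15 and 6 reads in all 4 control libraries and 9 and 0 in all 4 pyrimethamine libraries. FLG, encoding filaggrin, was by far the most abundant, at 11267, 11007, 14367 and 10911 normalized counts in the control and 37375, 41959, 44609 and 50056 under pyrimethamine, a log2 change of 1.87 (limma adjusted p = 2.16e-12). LCE1F was at 174, 124, 152 and 136 in the control and 532, 559.7, 469.8 and 492 under pyrimethamine, and KPRP had 11 reads in all 4 control libraries and 194 in all 4 pyrimethamine libraries. The other 5 that were higher were LCE1E, LCE1C, SPRR5, SPRR1B and PRR9, all with fewer than 1000 reads per group. SPRR1B, SPRR5 and LCE1E had 5, 3 and 24 reads in all 4 control libraries and 114, 66 and 157 in all 4 pyrimethamine libraries. Among the 8 libraries, KPRP, SPRR1B, SPRR5 and LCE1E passed the filter through pyrimethamine only, so their direction was fixed in advance. The count of 8 of 10 can therefore not be weighed against 26.4%.

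Long noncoding and antisense genes leaned upward across the genome. Of 214 well-measured lincRNA genes 43.0% were higher and 15.9% lower, with a median log2 change of 0.20, and of 288 antisense genes 43.8% were higher and 15.3% lower, with a median of 0.21. Protein-coding genes, 11271 of them, were 29.7% higher and 34.7% lower, with a median of -0.022. The difference was present among genes of like level: from 100 to 300 normalized counts, 34.1% of 126 lincRNA and 42.5% of 174 antisense genes were higher, against 22.6% of 1083 protein-coding genes. Medians of both noncoding classes were above 0.14 with equal totals, upper-quartile rescaling and quantile normalization, and in edgeR and DESeq2. Together long noncoding RNA genes took 0.609% ± 0.011 of reads in the control and 0.671% ± 0.0082 under pyrimethamine (SD, n = 4 each, exact permutation p = 0.0286, adjusted p = 0.04). Protein-coding genes took 97.4% ± 0.071 and 96.8% ± 0.147, a fall much larger than the long noncoding rise, so the 2 are not an exchange of equal size. Of 231 antisense genes that overlap a tested protein-coding gene, 152 had a larger log2 change than that gene, with medians of 0.19 for the antisense genes and -0.063 for their partners. Whether reads were counted by strand is not given in the sources used here, so reads of such pairs cannot be told apart.

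**Figure D5:**
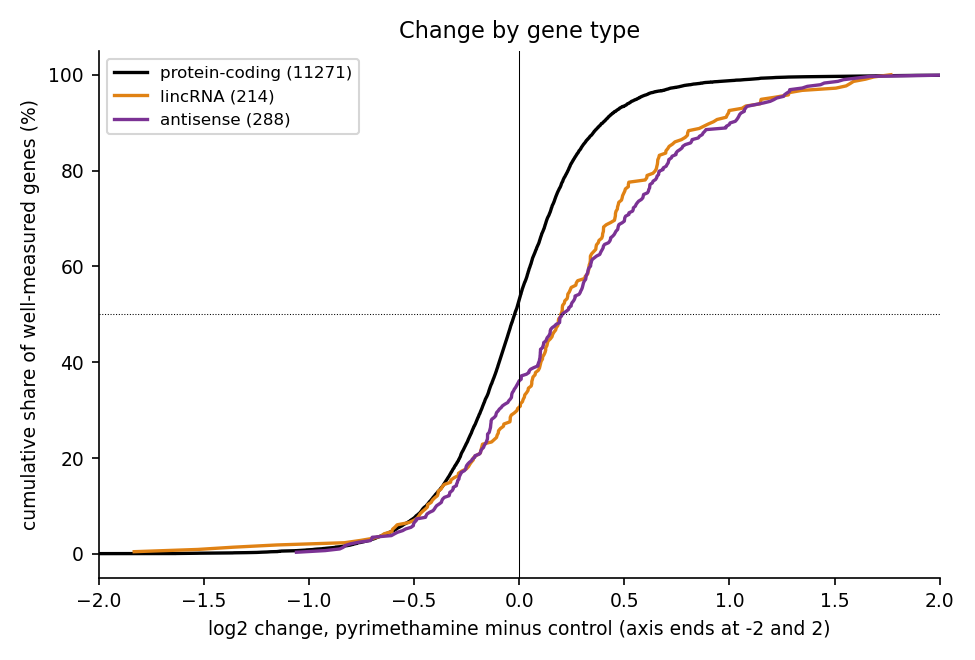
Cumulative share of well-measured genes (vertical axis, percent) by log2 change, pyrimethamine minus control (horizontal axis), for protein-coding, lincRNA and antisense genes. Both noncoding curves lie to the right of the protein-coding curve, with medians of 0.20 and 0.21 against -0.022.

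MZF1-AS1, antisense to the zinc finger gene MZF1, was the highest rise among long noncoding RNA genes, from 123, 114, 67.5 and 103 to 378, 438, 464 and 482 normalized counts, a log2 change of 2.13 (limma adjusted p = 1.08e-10). C6orf99 and LINC01010 followed with 1.77 and 1.69. LINC00626 fell furthest, from 792, 821, 854 and 837 to 229.6, 184, 227 and 298, a log2 change of -1.83, followed by AC079922.2 with -1.53 and AC092171.3 with -1.36. Chromosomes differed little: medians ran from -0.092 on chromosome 22, where 43.0% of 307 genes were lower and 22.5% higher, to 0.042 on chromosome 4, with 28.9% of 433 lower and 34.6% higher. By summed exon length, 35.7% of the shortest of 5 equal classes of genes, up to 2838 bases, were higher and 24.7% lower, with a median of 0.048. In each of the other 4 classes 28.4% to 30.5% were higher and 33.0% to 37.1% lower. Exon length, gene type and level move together, and their separate parts in these shares were not tested.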

How the data were processed

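RNA sequencing of 12 KYSE70 libraries (4 control, 4 pyrimethamine, 4 mitoxantrone) was deposited as a table of 58884 genes. The deposited signal values are normalized counts that the authors made by dividing each library's read counts by 1 size factor. Undoing that division gave whole reads for 100.0% of values within 0.01 read in every library, and the factors equal the median of ratios over genes. Tools listed in the submitters' processing notes were STAR 2.6.90c, featureCounts 1.5.1, FastQC 0.11.5 and cutadapt 1.12. The notes list hg38 and also mm10, with no role given, and the strand setting of the counting is not given in the sources used here. Of the identifiers, 58611 matched GENCODE 29, which gave gene types and coordinates, and 273 did not. Depth is given by reads assigned to genes, and counting error covers sampling of reads only.

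The test was limma 3.58.1 (R 4.3.3) on log2(normalized count + 1), fitted to all 12 libraries by group with a variance trend, two-sided, with Benjamini-Hochberg adjustment over 16950 genes and calls at an adjusted p under 0.05. Fold changes are on the log2(value + 1) scale, which understates changes of low genes. On the recovered reads, edgeR 4.0.16 called 9286 genes and DESeq2 1.42.0 called 9318. Library measures were compared by exact permutation over libraries. Promoters came from RefSeq (GRCh38.p14).

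Genes were named by rule. Among well-measured protein-coding genes that were called and whose control and pyrimethamine libraries do not overlap, the rule took the 12 highest rises and 12 largest falls. The 8 largest gains and losses in normalized counts were taken under the same limit of no overlap, without genes of the mitochondrial genome. Also named were up to 3 called members each way per list, 2 each way for the 8 highest and 8 lowest families, and 3 long noncoding genes each way. Some genes that the rule names are not reported here. The gene lists, the families and this rule were chosen with earlier results of these data known. Genes outside the rule, and the split of promoters by CHR and CCAAT letters, were picked once values were known. Alternatives changed the pseudocount, filter, scaling, variance model, libraries in the fit, replicate block and test.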

Additional observations from a re-analysis of the deposited data

Results flagged for a closer look

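In 264 groups of 4 libraries, 1 per named gene or library measure and group, the highest or lowest library was compared with the others by its gap over the group's range. In 21 groups the ratio exceeded Dixon's critical value for 4 samples, where chance alone gives about 1 in 20 groups. Of these, 11 were control groups and 10 pyrimethamine groups.

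Among genes named for their size of change, ULBP1 stood apart in both groups, with 400.4 normalized counts in control 1 against 258 to 275 in the others and 122 in pyrimethamine 2 against 73.7 to 77.4. MAP3K7CL had 59.3 in control 4 against 40.3 to 43.0. CIRBP had 1605 in pyrimethamine 3 against 1402 to 1419, and HIST1H2BC had 574 in pyrimethamine 4 against 663 to 678. FLG had 14367 in control 3 against 10911 to 11267. KLK10 had 1557 in control 1 against 1376 to 1391, and KLK5 had 295 in control 2 against 348 to 355. In all of these genes control and pyrimethamine libraries still did not overlap.

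Cell cycle and folate genes had smaller gaps. CDC20 had 17981 in control 1 against 20046 to 20210.1, and KIF20A had 16628 in pyrimethamine 3 against 17325 to 17429. RRM1 had 17981 in control 4 against 18446 to 18539.9. SHMT2 had 16679 in control 3 against 17631 to 17773, and GGH had 4867 in pyrimethamine 2 against 5066 to 5078. PHGDH had 11492 in pyrimethamine 1 against 10605 to 10715.

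Other genes that stood apart were ACTB, with 323763 in pyrimethamine 3 against 312690 to 314116, and ANXA2, with 107675 in control 1 against 114199 to 115435. EGFR had 23387 in pyrimethamine 2 against 22718 to 22797, and STAT3 had 7913 in pyrimethamine 1 against 8259 to 8327. ZNF750 had 21.4 in pyrimethamine 1 against 7.88 to 8.76. SRSF4 had 3407 in control 4 against 3129.9 to 3169. Long noncoding RNA genes took 0.593% of reads in control 2 against 0.614% to 0.616% in the other control libraries.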

How the results depend on the processing

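Counts of called genes stayed within 1.5 times their value in all 262 combinations of 13 counts and 21 alternative settings that could be computed. Calls over all tested genes ran from 7912 (only genes with a mean of at least 100) to 9810 (only the 8 libraries), against 9042, and at least 2-fold changes in well-measured genes from 275 (pseudocount 10) to 328 (quantile normalization), against 304. Leaving out 1 library gave 8299 to 8562 calls, 7188 to 7429 in well-measured genes, 300 to 324 changes of at least 2-fold and 1275 to 1354 of at least 1.5-fold. The balance of directions did depend on scaling: with library totals made equal, 3647 genes were higher and 5506 lower, against 4477 and 4565. Of 125 genes named, TKT, ACTB, KRT5 and VWF changed direction or call under a setting run, and the others kept both. TKT turned to -0.0049 under quantile normalization, and ACTB and KRT5 lost their calls there, while VWF was called (limma adjusted p = 0.0487) when only the 8 libraries were fitted. Medians of 6 of 62 lists and families changed sign (desmosome and tight junction genes, glycolysis, STAT3 targets, WNT and Notch genes, apoptosis genes and the TMEM family). Family medians moved by more than their SD among pyrimethamine libraries in 19 checks and stayed within it in 32. With library totals made equal, 10 family medians moved and 9 stayed. List medians (by the same SD) and list counts (by 1.5 times) moved in 113 checks and stayed in 2596. Motif shares at 2-fold left the binomial interval of the 1.5-fold share in 6 cases and stayed in 10. The share of reads from pseudogenes passed only without control 4 (adjusted p = 0.04 by exact permutation). Families of fewer than 8 members with a mean of at least 500 gave no value at that level.

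Replicate numbers are shared between groups, but no label says what they pair, and same-numbered libraries did not deviate together (correlations of -0.017, 0.034, -0.045 and -0.108 across genes for numbers 1 to 4). No library correlated best with its own number. With the replicate number as a block, 9057 genes were called, 4492 higher and 4565 lower, with 7788 calls in well-measured genes and 304 changes of at least 2-fold.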
